A study of Arabidopsis thaliana with 9 samples.

Results

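WRKY and NAC proteins are the subject here, and 7 Arabidopsis thaliana genes represent them, 6 of the WRKY family and 1 of the NAC family. They were chosen as the probe sets that the platform annotation ties to exactly 1 gene, with a symbol of WRKY plus a number or NAC plus a number. This gave 7 of the 13356 genes named in that way. The RefSeq gene table lists 67 genes with a WRKY number and 79 with a NAC number, so most of both families were not analysed here. The members are WRKY6 (AT1G62300), WRKY20 (AT4G26640), WRKY22 (AT4G01250), WRKY42 (AT4G04450), WRKY47 (AT4G01720), WRKY53 (AT4G23810) and NAC014 (AT1G33060). All 7 are protein coding, 5 lie on chromosome 4 and 2 on chromosome 1, and each is read by 1 probe set whose name carries no mark of probes shared with other loci.

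The samples were 3 arrays each of line774, line1135 and WT-control, 9 in all. Whole plants at growth stage 1.04 had been kept for 17 days on plates with 50 seeds each, at 21 °C with 16 h of light and 8 h of darkness. The series is titled as one of epigenetic mutants, but the labels name no mutated gene for either line, and they give a T-DNA knock-out on all 9 samples, WT-control included. The targeted gene could therefore not be checked. No label gives separate cultures for the arrays of one group, and the p-values cover only the spread among these arrays, which may be technical.

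WRKY proteins are plant transcription factors that carry the WRKY DNA-binding domain and bind W-box elements in promoters. Many of them act in immune signalling and leaf senescence, and several regulate one another. NAC proteins are a second large plant-specific family, named after NAM, ATAF and CUC, and act in organ boundaries, wall thickening, senescence and stress responses.

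WRKY22 was lower in both mutant lines than in WT-control, and NAC014 was lower in line1135. No other member passed the test in any comparison, and no member passed with a higher signal. WRKY22 had a mean signal 0.491 times that of WT-control in line774 and 0.570 times in line1135, and NAC014 had 0.545 times in line1135. Neither gene reached a 2-fold change on the log2(signal + 16) scale used for testing, which understates changes of low signals. Passing means an adjusted p under 0.05 from limma, fitted to all 22746 probe sets and 9 arrays, and differences below are on that log2 scale with a standard error.

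Rank correlations between arrays ran from 0.964 to 0.975 within groups and from 0.934 to 0.965 between groups. Background was set per array by the highest of 27 Bacillus control probe sets, which lay between 5.36 and 13.4 in signal. Of 14 green shoot markers listed, the 1 measured was RCA (rubisco activase, a leaf enzyme). RCA had a mean signal of 5900 ± 138 in line774, 6185 ± 402 in line1135 and 5684 ± 665 in WT-control (SD, n = 3). Summed over the 3 root markers measured of 12 listed (PYK10, EXPA7 and EXPA18), the signal was 2370 to 3441 in line774, 2721 to 3473 in line1135 and 3058 to 3594 in WT-control. PYK10, a root and endoplasmic reticulum body glucosidase, made up nearly all of that sum. EXPA7, an expansin of root hair cells, had 18.4 ± 2.85 in line774, 11.7 ± 4.31 in line1135 and 8.73 ± 4.04 in WT-control, with a line774 difference of 0.49 ± 0.16 (limma adjusted p = 0.0808). Its line774 arrays all lay above those of WT-control, but EXPA7 was above background on only 7 of the 9 arrays. Its part in the results below was not tested. None of these 4 genes passed in any comparison, by limma's adjusted p, and 0 of 14 flower, pollen and seed markers had a named probe set. Here and below, a listed gene counts as measured only where the annotation ties a probe set to it alone. Other listed genes may be read by unnamed probe sets. In whole plants, fewer cells of a type and less RNA per cell cannot be told apart.

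**Figure D1:**
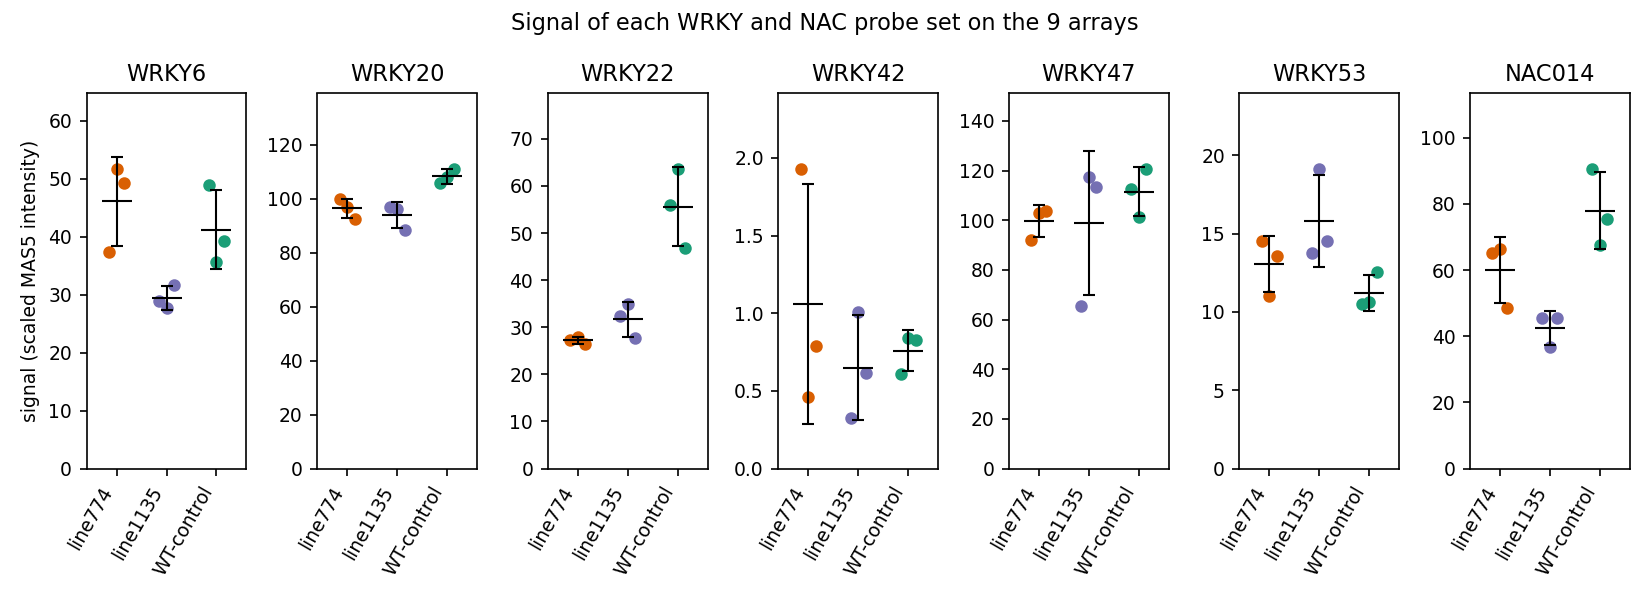
Signal (scaled MAS5 intensity, a linear unit with its own range in each panel) of the 7 probe sets on each array, with group means and SD as black bars (n = 3 each). The 3 line774 arrays and the 3 line1135 arrays of WRKY22 all lie below its 3 WT-control arrays, and WRKY42 stays under a signal of 2 throughout.

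WRKY22 acts downstream of the flagellin receptor through a kinase cascade in Arabidopsis immunity, and also takes part in senescence induced by darkness. Its signal was 27.3, 28.0 and 26.5 on the line774 arrays, 32.5, 34.9 and 27.7 on the line1135 arrays, and 56.0, 63.7 and 46.9 on the WT-control arrays. The arrays of either mutant line did not overlap with those of WT-control, while the arrays of the mutant lines overlapped with each other. The highest mutant array, at 34.9, was well under the lowest WT-control array, at 46.9.

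WRKY22 fell by 0.72 with a standard error of 0.13 in line774 (95% interval -1.01 to -0.43, limma adjusted p = 0.00455). In line1135 it fell by 0.58 with a standard error of 0.13 (95% interval -0.87 to -0.29, limma adjusted p = 0.0135). These differences stood at the 2.28th percentile of all tested probe sets in line774 and at the 4.18th in line1135. The direct comparison of line1135 with line774 gave 0.14 ± 0.13 (95% interval -0.15 to 0.43, limma adjusted p = 0.692). Both lines were compared with the same WT-control arrays, so the decreases share those arrays. In line1135 the call was lost without WT-control replicate 1 (limma adjusted p = 0.0513) or WT-control replicate 2 (0.0582). Without line1135 replicate 3 it was only just kept (limma adjusted p = 0.0499957). With an offset of 64 in place of 16 the differences were -0.39 in line774 and -0.32 in line1135, and both still passed.

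Among the WRKY genes, WRKY6 differed most between the mutant lines. It is a regulator linked to senescence, pathogen response and phosphate transport, and it represses the phosphate exporter gene PHO1. Its signal was 37.3, 51.8 and 49.2 in line774, 28.9, 27.7 and 31.6 in line1135, and 48.9, 35.6 and 39.2 in WT-control. All 3 line1135 arrays lay below every array of the other groups, and the line774 arrays overlapped with those of WT-control.

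The WRKY6 difference between line1135 and line774 was -0.44 ± 0.14 (95% interval -0.76 to -0.13, limma adjusted p = 0.158), so it did not pass. Against WT-control it was -0.33 ± 0.14 in line1135 (limma adjusted p = 0.165) and 0.12 ± 0.14 in line774 (limma adjusted p = 0.689). Over the other settings tried, the adjusted p of the difference between the lines stayed between 0.0877 and 0.375. A p above the threshold does not show that the lines act alike.

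WRKY42 belongs to the same WRKY subgroup as WRKY6 and likewise represses PHO1 in Arabidopsis. Its signal was 1.93, 0.459 and 0.788 in line774, 0.329, 1.01 and 0.616 in line1135, and 0.606, 0.843 and 0.828 in WT-control. All 9 values were below the background of their array, so the probe set gives only an upper bound in each group and no fold is given.

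WRKY47 is of that subgroup too. Its signal was 92.1, 103 and 104 in line774, 65.5, 118 and 114 in line1135, and 112, 101 and 121 in WT-control. Replicate 1 of line1135 was the lowest of the 9 arrays by a wide margin, and the groups overlapped. The difference from WT-control was -0.14 ± 0.17 in line774 (95% interval -0.51 to 0.23, limma adjusted p = 0.686) and -0.18 ± 0.17 in line1135 (95% interval -0.55 to 0.19, limma adjusted p = 0.556). Without line1135 replicate 1 the line1135 value was 0.05, so its sign rests on that array.

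WRKY53, a positive regulator of leaf senescence that also acts in defence, was measured close to background. Its signal was 14.5, 11.04 and 13.6 in line774, 13.7, 19.2 and 14.5 in line1135, and 10.5, 10.6 and 12.5 in WT-control. Each value was above the background of its own array. The 3 line1135 arrays lay above the WT-control arrays, and those of line774 overlapped with them. The difference was 0.22 ± 0.12 in line1135 (95% interval -0.05 to 0.49, limma adjusted p = 0.294) and 0.09 ± 0.12 in line774 (95% interval -0.18 to 0.37, limma adjusted p = 0.725).

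WRKY20, a member of the group with a pair of WRKY domains, had the tightest replicates of the members with signals near 100. Its signal was 99.7, 97.0 and 92.5 in line774, 97.0, 96.1 and 88.2 in line1135, and 106, 108 and 111 in WT-control. Every mutant array lay below every WT-control array, but by a small margin. The difference was -0.15 ± 0.08 in line774 (95% interval -0.33 to 0.04, limma adjusted p = 0.315) and -0.18 ± 0.08 in line1135 (95% interval -0.36 to 0.00, limma adjusted p = 0.191).

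NAC014, also known as NTL2, encodes a NAC protein of the membrane-anchored type, which is held at a membrane until it is released to the nucleus. Its signal was 65.3, 66.3 and 48.7 in line774, 45.4, 36.6 and 45.6 in line1135, and 90.7, 67.7 and 75.5 in WT-control. The 3 groups did not overlap with one another, with line1135 lowest and line774 between line1135 and WT-control. The line774 arrays came close to WT-control, since the highest of them was at 66.3 and the lowest WT-control array at 67.7.

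NAC014 fell by 0.68 with a standard error of 0.14 in line1135 (95% interval -0.99 to -0.37, limma adjusted p = 0.00848), which stood at the 3.02nd percentile of all tested probe sets. In line774 the difference was -0.31 ± 0.14 (95% interval -0.61 to 0.00, limma adjusted p = 0.200), so it did not pass. The difference between line1135 and line774 was -0.37 ± 0.14 (95% interval -0.68 to -0.07, limma adjusted p = 0.240), so a difference between the lines was not shown. The line1135 call was kept without each array in turn, with adjusted p between 0.00721 and 0.0431, and at an offset of 64 the value was -0.41.

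**Figure D2:**
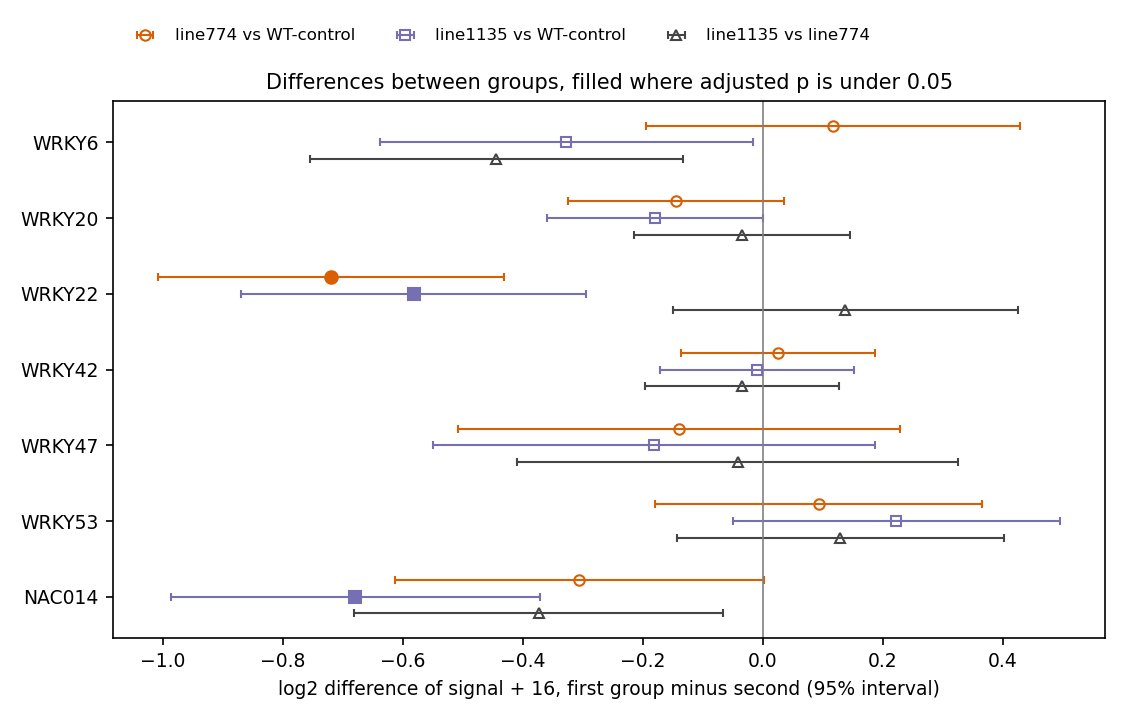
Log2 differences of signal + 16 with 95% intervals for the 7 members, as line774 or line1135 minus WT-control and line1135 minus line774. Filled symbols passed at an adjusted p under 0.05, namely WRKY22 at -0.72 in line774 and -0.58 in line1135, and NAC014 at -0.68 in line1135.

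By family, 1 of the 6 WRKY probe sets was lower and 0 were higher in line774, where 6.01% of all tested probe sets were lower and 6.60% higher by limma's adjusted p. In line1135 the counts were again 1 lower and 0 higher of 6, against 6.86% lower and 6.74% higher over all probe sets. The NAC family had 0 of 1 probe sets passing in line774 and 1 of 1 lower in line1135. Between line1135 and line774, 0 of the 7 members passed, where line1135 had 1.13% of all tested features higher and 0.870% lower. At an unadjusted limma p under 0.05, that comparison had 1 lower WRKY probe set, WRKY6, and the lower NAC014, where 8.04% of all probe sets were lower and 6.81% higher. A count of 1 among so few members is no result about a family. At an adjusted p under 0.05 with at least a 2-fold change, 0 members were called. The shares of all probe sets were then 1.02% higher and 0.980% lower in line774, 1.06% higher and 1.22% lower in line1135, and 0.435% higher and 0.167% lower in line1135 against line774.

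The median difference over the 6 WRKY probe sets was -0.06 in line774, -0.18 in line1135 and -0.03 between line1135 and line774. Over all tested probe sets the medians were 0.02 in line774, 0.02 in line1135 and 0.00 between line1135 and line774. The WRKY medians rest on single arrays and on dim probe sets. Without line1135 replicate 1 they were -0.10 in line1135 and 0.05 between the lines, and in line774 the median was -0.14 once probe sets below the 25th percentile of mean signal, WRKY42 among them, were left out. WRKY differences from WT-control ran from -0.72 to 0.12 in line774 and from -0.58 to 0.22 in line1135. In line774, arrays did not overlap with WT-control for 2 WRKY probe sets and the NAC probe set, all lower, where 13.7% of all probe sets were lower and 17.0% higher in that way. In line1135 this held for 3 lower WRKY probe sets, the lower NAC probe set and 1 higher WRKY probe set, against 14.4% lower and 16.5% higher over all probe sets. Between the lines it held for WRKY6 and NAC014, both lower in line1135, where 9.97% of all probe sets were lower and 8.93% higher.

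**Figure D3:**
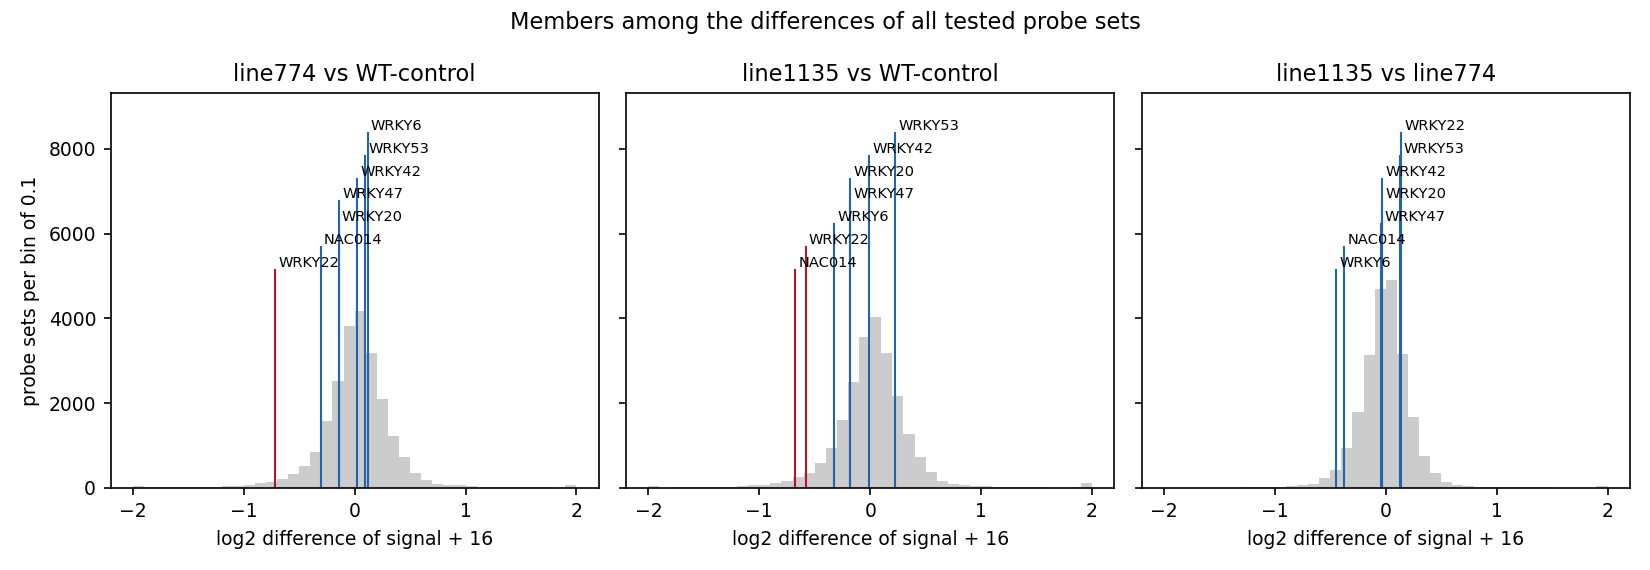
Distribution of the log2 differences of all 22746 tested probe sets (grey, in bins of 0.1, with values past 2 or -2 placed in the end bins) and the 7 members as lines. Red lines passed, blue lines did not, and in both comparisons with WT-control the members that passed lie in the lower tail while the other members lie closer to 0.

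ZAP1 carries WRKY1 as a synonym in the RefSeq table and lies outside the set chosen by symbol. Its signal was 102, 124 and 103 in line774, 104, 104 and 112 in line1135, and 118, 110 and 117 in WT-control, with overlapping groups. Its difference was -0.06 ± 0.09 in line774 and -0.09 ± 0.09 in line1135, and neither passed by limma (adjusted p = 0.752 in line774 and 0.587 in line1135).

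Genes of pathways in which these families act were only sparsely named by the annotation. Those not counted as measured may be read by unnamed probe sets. Of 26 listed kinases and partner proteins of WRKY factors, 0 were named. Of 27 salicylic acid and pathogen defence genes, the 1 measured was SAG101, a partner in immune signalling, with 33.0 ± 6.26 in line774, 34.2 ± 6.05 in line1135 and 28.8 ± 1.24 in WT-control (SD, n = 3). Of 22 senescence genes, the 1 measured was SAG29, a sugar transporter, with 492 ± 87.8 in line774, 369 ± 150 in line1135 and 439 ± 20.0 in WT-control (SD, n = 3). Neither gene passed in any comparison.

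Of 23 abscisic acid, drought and salt genes, 3 were measured, and 2 of them, COR47 and COR15A, were lower in each mutant line. Over all tested probe sets, 6.01% were lower in line774 and 6.86% in line1135. A count among 3 genes is no result about the list. COR47, a dehydrin, had 838 ± 162 in line774, 865 ± 34.7 in line1135 and 1146 ± 19.8 in WT-control (SD, n = 3). Its calls did not survive the loss of any WT-control array, with limma adjusted p of 0.0659 to 0.0806 in line774 and up to 0.126 in line1135, or a fit with no intensity trend (0.0513 in line774 and 0.0805 in line1135). In line774 the call was also lost with only the 2 groups compared in the fit (0.0615). In line1135 it was also lost without any line1135 array (0.0762 to 0.121) or without line774 replicate 3 (0.0564). COR15A, a cold-regulated chloroplast protein, had 118 ± 63.1 in line774, 64.2 ± 26.1 in line1135 and 340 ± 73.2 in WT-control, and its line774 call was lost without WT-control replicate 1 (limma adjusted p = 0.0654). The third gene, COR15B, had 16.1 ± 4.72 in line774, 21.9 ± 4.42 in line1135 and 28.5 ± 13.6 in WT-control and did not pass. Median differences of the list were -0.46 in line774 and -0.40 in line1135, which are the values of COR47 itself. Over all tested probe sets the medians were 0.02 in each line.

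Of 28 secondary wall and vessel genes, which several NAC factors control, the 1 measured was GUT2 (IRX10), a xylan synthesis enzyme, with differences of 0.21 in line774 and -0.06 in line1135. Of 14 shoot meristem and organ boundary genes, 2 were measured. LAS, a regulator of axillary meristems, had differences of 0.00 in line774 and 0.36 in line1135, and was above background on 7 of 9 arrays. CLV3, a stem cell peptide gene, was at or below background on all 9 arrays. None of the 3 passed in any comparison.

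The members also differ in what lies beside them on the chromosome. Among the 10 annotated loci on either side of each member, in RefSeq order, 55 were measured by a probe set tied to that locus alone. Of these, 7 have a pseudogene type, 5 beside WRKY42 and 2 beside NAC014. Of the 55, 7 were higher and 4 lower in line774, which is 12.7% and 7.27%, and 5 were higher and 5 lower in line1135, which is 9.09% each. Across all tested probe sets these shares were 6.60% and 6.01% in line774 and 6.74% and 6.86% in line1135. Between line1135 and line774, 0 of the 55 were higher and 1 was lower, which is 1.82%. Across all tested probe sets 1.13% were higher and 0.870% lower in that comparison. The loci that passed are named below, and they were picked after their values were seen. None of the 5 measured beside WRKY6 passed.

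Beside WRKY42, AT4G04430, a pseudogene-type locus 2 positions away, had a mean signal of 67.3 ± 25.2 in line774, 31.8 ± 0.470 in line1135 and 0.146 ± 0.160 in WT-control (SD, n = 3). WT-control was at or below background, so the locus was at least 10.8-fold higher in line774 and at least 5.30-fold higher in line1135. Its difference between line1135 and line774 was -0.76 ± 0.18 (limma adjusted p = 0.0693) and did not pass. AT4G04410, another pseudogene-type locus 9 positions away, had 0.470 ± 0.222 in line774, 0.980 ± 0.301 in line1135 and 19.9 ± 1.87 in WT-control. It was at least 1.99-fold lower in line774 and at least 2.15-fold lower in line1135, where the mutant arrays were at or below background. WRKY42 itself stayed below background in all groups, as did AT4G04440 on 1 side of it, with means of 0.357 in line774, 0.536 in line1135 and 0.488 in WT-control. The gene on the other side, AT4G04460, had means of 21.5 in line774, 19.3 in line1135 and 27.2 in WT-control and did not pass. It was above background on 3 arrays of line774, 2 of line1135 and 3 of WT-control.

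Beside NAC014, the pseudogene-type locus AT1G33130, 10 positions away, had 1839 ± 251 in line774, 1810 ± 131 in line1135 and 5.77 ± 5.43 in WT-control (SD, n = 3). Only 1 of the 3 WT-control arrays was above background there. It is read by an _x_at probe set, which shares probes with related loci. The adjacent gene AT1G33055 had 307 ± 102 in line774, 179 ± 28.2 in line1135 and 323 ± 17.8 in WT-control. It fell by 0.81 with a standard error of 0.21 in line1135 (limma adjusted p = 0.0247), and the call was lost without WT-control replicate 1, 2 or 3 or line1135 replicate 1 or 3 (adjusted p 0.0552 to 0.0919). Its line774 difference was -0.13 ± 0.21. The gene on the other side, AT1G33070, had means of 1.29 in line774, 1.34 in line1135 and 0.425 in WT-control and did not pass. It was at or below background on every array.

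Near WRKY22, AT4G01270, 4 positions away, rose in line774 (0.64 ± 0.15, limma adjusted p = 0.0180) and in line1135 (0.60 ± 0.15, limma adjusted p = 0.0232). Both calls were lost without WT-control replicate 1 or 3, the line774 call also without line774 replicate 2 (adjusted p 0.0647 to 0.0714), and the line1135 call also without line1135 replicate 1 or 3 (0.0635 to 0.0835). AT4G01330, 9 positions away, fell by 0.88 with a standard error of 0.21 in line774 (limma adjusted p = 0.0191) and had -0.62 ± 0.21 in line1135 (limma adjusted p = 0.0787). Its line774 call was lost without WT-control replicate 1, line774 replicate 1 or line774 replicate 2 (0.0510 to 0.0726). The adjacent AT4G01240 had 1.62 ± 1.38 in line774, 9.62 ± 9.69 in line1135 and 6.88 ± 4.86 in WT-control, and did not pass. It was above background on 0 arrays of line774, 1 of line1135 and 2 of WT-control.

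WRKY20 stood beside AT4G26650, which was higher in both lines, at 183 ± 14.4 in line774 and 198 ± 10.1 in line1135 against 131 ± 5.63 in WT-control (limma adjusted p = 0.00518 in line774 and 0.00143 in line1135). The next locus, AT4G26660, had 14.9 ± 1.103 in line774, 12.8 ± 1.84 in line1135 and 5.43 ± 4.96 in WT-control, where 1 of 3 arrays was above background. It passed as higher in line774 (limma adjusted p = 0.0451), but not without any one array other than WT-control replicate 3 (up to 0.170), at offset 1 (0.0716), under quantile or median scaling (0.0626 and 0.0513), or with only the 2 groups fitted (0.0743).

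AT4G01700, 4 positions from WRKY47, had 61.2 ± 14.8 in line774, 23.9 ± 8.30 in line1135 and 28.3 ± 3.60 in WT-control. Of the 55 neighbouring loci it was the 1 that passed between the mutant lines, at -0.95 ± 0.18 in line1135 against line774 (limma adjusted p = 0.0264). It also rose by 0.79 with a standard error of 0.18 in line774 (limma adjusted p = 0.0180). The call between the lines was lost without line774 replicate 1 or 2 or line1135 replicate 1 or 2 (0.0735 to 0.109) and with only the 2 groups fitted (0.0792). The line774 call was lost without WT-control replicate 1 or 3 or line774 replicate 1 or 2 (0.0590 to 0.0752). WRKY47 itself did not pass in any comparison.

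WRKY53 stood beside AT4G23800, with 111 ± 1.31 in line774, 104 ± 9.13 in line1135 and 74.8 ± 7.24 in WT-control. AT4G23800 rose in both lines (limma adjusted p = 0.00715 for line774, 0.0189 for line1135). Its line1135 call was lost without WT-control replicate 1 or 3 or line1135 replicate 1 or 2 (0.0602 to 0.0739). The other loci that passed near WRKY53 were lower. AT4G23880, 7 positions away, had 25.6 ± 3.48 in line774, 28.8 ± 4.00 in line1135 and 57.9 ± 4.18 in WT-control, and fell in both lines (limma adjusted p = 0.00188 for line774, 0.00380 for line1135), without any one array too.

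AT4G23870, 6 positions from WRKY53, had 34.9 ± 6.35 in line774, 33.0 ± 6.56 in line1135 and 68.1 ± 20.9 in WT-control, and fell in both lines (limma adjusted p = 0.0306 for line774, 0.0203 for line1135). Its line774 call was lost without WT-control replicate 1 or 3 or line774 replicate 1 or 2 (0.0674 to 0.112) and with only the 2 groups fitted (0.0508). Its line1135 call was lost without WT-control replicate 1 or line1135 replicate 1 or 2 (0.0561 to 0.0777). AT4G23730, 10 positions away, had 87.2 ± 10.4 in line774, 71.0 ± 2.79 in line1135 and 99.4 ± 8.85 in WT-control. It fell in line1135 (-0.41 ± 0.10, limma adjusted p = 0.0270), a call lost without WT-control replicate 1 or 2 or any line1135 array (0.0538 to 0.1103). Whether the state of neighbouring loci bears on the members was not tested.

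**Figure D4:**
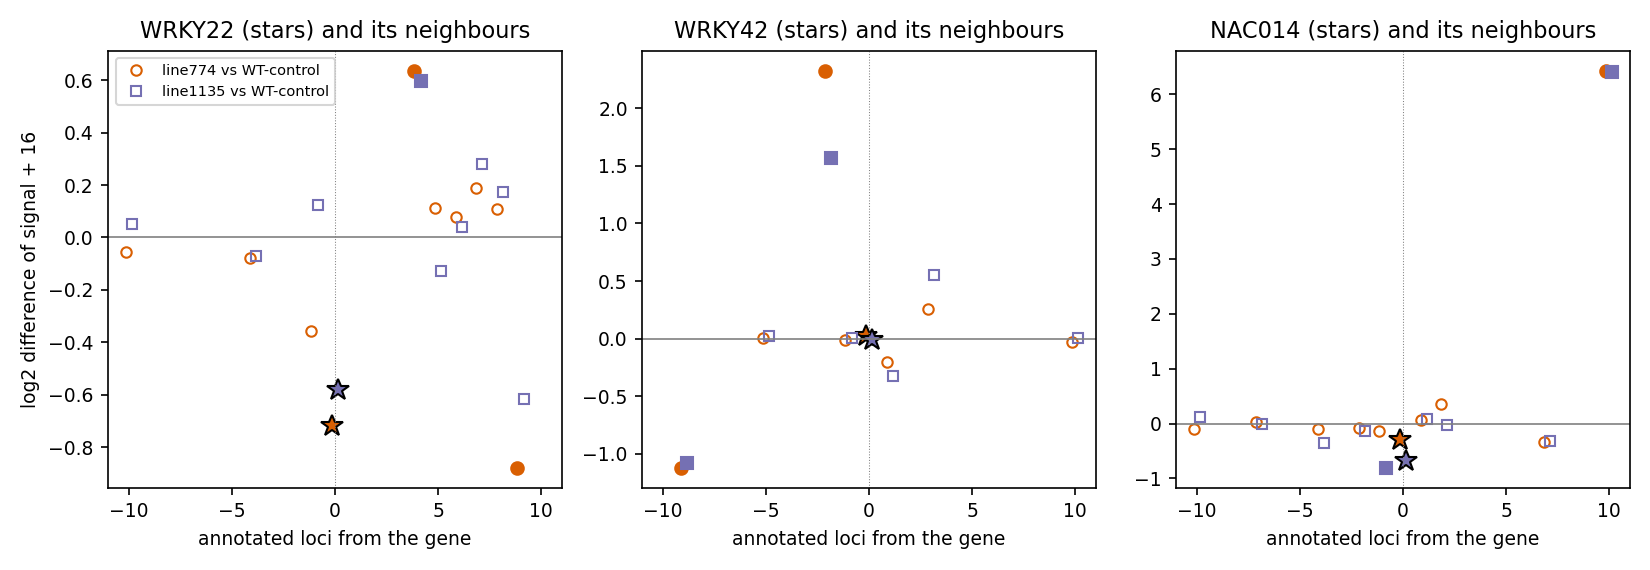
Log2 differences of signal + 16 from WT-control for the measured loci among the 10 on either side of WRKY22, WRKY42 and NAC014, plotted by number of annotated loci from the gene, with the gene itself as stars. Filled symbols passed, and the highest points of the WRKY42 and NAC014 panels are the pseudogene-type loci AT4G04430 and AT1G33130. Their WT-control signals were at or near background, so the plotted heights are fitted values that depend on the offset, not measured folds.

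The calls for WRKY22 and NAC014 depended on the processing to different degrees. Under all alternatives tried, WRKY22 kept a negative value between -0.99 and -0.39 in line774, and between -0.79 and -0.32 in line1135. NAC014 in line1135 lay between -0.86 and -0.41. The spread of these values came mainly from the offset, with offset 1 at the low end and offset 64 at the high end of each range.

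**Figure D5:**
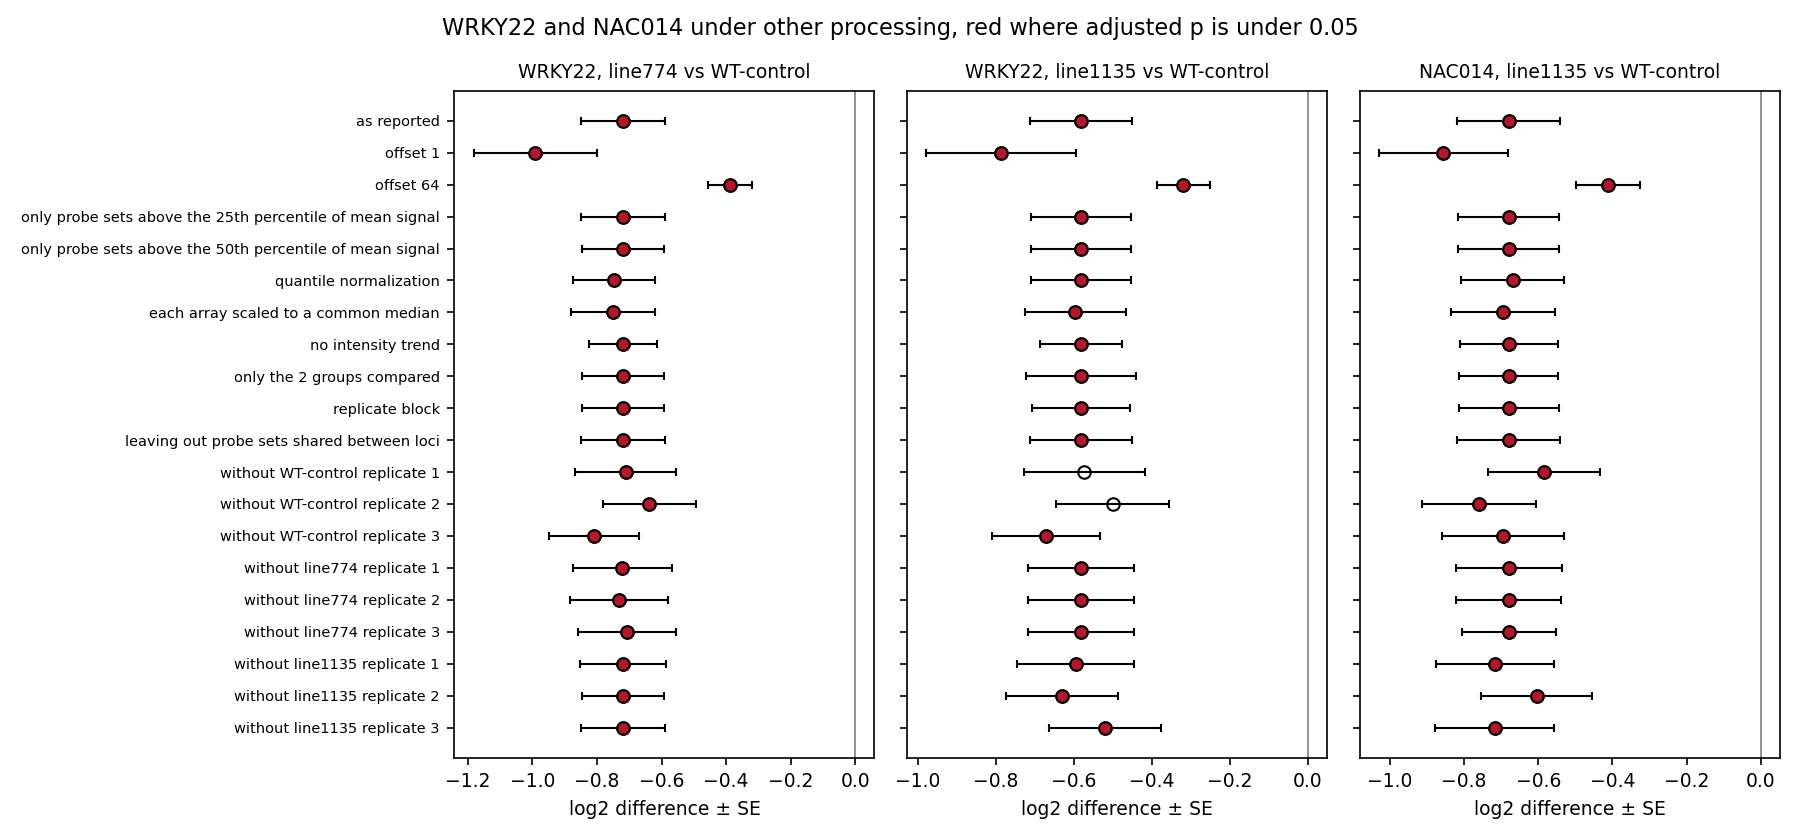
Log2 differences with standard errors for WRKY22 in line774, WRKY22 in line1135 and NAC014 in line1135 (each minus WT-control) under each processing alternative, red where the adjusted p was under 0.05. The open circles are WRKY22 in line1135 without WT-control replicate 1 or 2, at -0.57 and -0.50.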

How the data were processed

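RNA of 9 whole-plant samples, 3 arrays per group, was read on Affymetrix ATH1 arrays after 3' labelling, per the labels. Each deposited value is a probe set's intensity on a linear scale. The submitters' processing notes name MAS5 and GCOS, with versions not given in the sources used here. Each array's 2% trimmed mean was 100.01 or close to it, so the authors' intensity values had been scaled by 1 factor per array. Array medians ran from 35.3 to 37.4, and the number of arrays limits the precision.

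Groups and replicate numbers came from sample titles. After leaving out 64 control probe sets of 22810, log2(signal + 16) was fitted by limma (version 3.58.1, R 4.3.3) to the 9 arrays together, with 1 mean per group, an intensity trend in eBayes and 6 residual degrees of freedom. Benjamini-Hochberg adjustment ran over the 22746 probe sets of each comparison, with no filter. Of these, 13513 had 1 gene, 503 several and 8730 none in the annotation, and unnamed ones may still read a gene. All 7 members matched a RefSeq locus (TAIR10.1), used for names and gene order only, since the arrays name no build. The test was checked on simulated data with normal noise and changes planted in line774. How often changes as small as those of WRKY22 and NAC014 are found is not reported here.

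Members and lists were chosen with earlier results of these data known, and the neighbour window of 10 loci was chosen after values were seen, with every locus that passed named. All 7 members are named. Beyond them, the rule for the related gene lists was to name genes with an adjusted p under 0.05 or the 2 lowest p. In the text, every measured gene of these lists and of the tissue markers is named. Same-numbered arrays deviated together only weakly (correlations 0.0274 to 0.0894, 0 of 9 pairs over 0.1). Differently numbered pairs ran from -0.0998 to 0.0568, also under 0.1, so that cut cannot exclude pairing. The fit assumed no pairing, and a replicate block was run as an alternative. Alternatives were the offset, low-signal filters, normalization, trend, fitted arrays, replicate block, shared probe sets, thresholds and leaving out each array. Figures were drawn with matplotlib 3.10.9.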

Additional observations from a re-analysis of the deposited data

How the results depend on the processing

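Of 252 recomputed family counts, 246 kept their value, but most of the counts were 0 to begin with and stayed 0. Some settings also left out an array of the group not compared. The 6 that moved were all counts of 1 that became 0, so the share kept says little about the calls. Requiring at least a 2-fold change as well gave 0 lower WRKY probe sets in line774, 0 in line1135 and 0 lower NAC probe sets in line1135, and an adjusted p under 0.01 gave 0 lower WRKY probe sets in line1135. Leaving out 1 array gave 0 to 1 lower WRKY probe sets in line1135, with 0 without WT-control replicate 1 or 2, since WRKY22 then had adjusted p of 0.0513 and 0.0582. With the replicate number as a block, the adjusted p of WRKY22 was 0.0061 (line774) and 0.0158 (line1135), that of NAC014 0.0105 (line1135), so no member's call changed, while the root marker EXPA7 passed in line774 (0.0466). The replicate block moved the count over all probe sets to 2952 in line774, 3208 in line1135 and 515 between the lines, against 2868, 3092 and 454 without it. No named value that passed changed sign under the settings run. Filters at the 25th percentile and above did not test WRKY42, and that at the 50th percentile did not test WRKY53. Calls over all probe sets numbered 456, 520 and 137 at 2-fold and 1355, 1493 and 174 at an adjusted p under 0.01, in the same order. Without WT-control replicate 1 they were 1771 in line774 and 1916 in line1135, and between the lines they ranged from 225 to 393 with 1 array left out and were 254 with only the 2 groups fitted. Signal at or below background limits WRKY42, and near it WRKY53.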
